A study of Mus musculus with 4 samples.

Results

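The nuclear genes of the respiratory chain and the ATP synthase were followed complex by complex in leukemia stem cells with and without Hif1a. Members were all genes of the array's annotation whose symbol begins with Nduf, Uqcr, Cox4, Cox5, Cox6, Cox7, Cox8 or Atp5, together with Sdha, Sdhb, Sdhc, Sdhd and Cyc1, each read from the probe set with the highest mean among those carrying 1 symbol. This gave 90 genes of the 19938 tested: 43 under complex I, 4 in complex II, 9 in complex III, 17 in complex IV and 17 in complex V. The samples were 2 of WT and 2 of Hif1a-/- leukemia stem cells, each on 1 Affymetrix array. Donors were C57BL/6 (B6) or Hif1a-/- mice given 5-fluorouracil. A retrovirus brought BCR-ABL, which is the kinase that causes chronic myeloid leukemia, and GFP into their marrow, which was grafted into B6 recipients. GFP+Lin-c-Kit+Sca-1+ cells were sorted from recipient marrow 14 days later, so both groups carry BCR-ABL and grew in hosts that have Hif1a. The labels give an age of 8 weeks and do not say how Hif1a was deleted, which exons are gone, or whether replicates came from separate animals. The p-values therefore measure only the spread between these samples, and precision is limited by the small number of arrays.

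Complex I takes electrons from NADH and complex II from succinate, and both pass them to ubiquinone. Complex III hands them to cytochrome c and complex IV to oxygen. The proton gradient built by complexes I, III and IV drives the ATP synthase, complex V. HIF1 is known for turning cells from respiration towards glycolysis when oxygen is low, partly by swapping the complex IV subunit COX4-1 for COX4-2 with help of the LONP1 protease and by inducing NDUFA4L2, which restrains complex I. Blood stem cells in the marrow are known to rely little on respiration, and the study asked which genes differ in leukemia stem cells that lack Hif1a.

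Most respiratory genes had a slightly higher mean in Hif1a-/- than in WT cells, and no gene passed the test. The median difference over the 90 members, Hif1a-/- minus WT, was 0.082 on the log2 scale, against 0.034 over all 19938 genes tested. Among the members, 71 had the higher mean in Hif1a-/- and 19 in WT, beside 61.4% of all genes with the higher mean in Hif1a-/-. The differences ran from -0.21 to 0.57. Complex III had the largest median, 0.17, followed by complex II with 0.13, complex V with 0.11 and complex I with 0.081, while complex IV stood at 0.022. With each array centred on its own median, the median over all genes was 0.0084. That left 65 members (72.2%) with a higher mean in Hif1a-/-, against 52.9% of all genes. Under that scaling complex IV turned to -0.0037, and the other complexes stayed above 0.

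With limma and Benjamini-Hochberg adjustment, 0 of the 90 members passed an adjusted p of 0.05, and neither did any other gene (0% of 19938). At an unadjusted p under 0.05 there was 1 member, Cox6b2, where 1.68% of all genes lay. Both Hif1a-/- arrays read above both WT arrays in 27 members, 30% of them, against 15.7% of all genes. Both read below in 5 members, 5.56%, against 9.05% of all genes. The groups overlapped in the other 58. The smallest two-sided p that an exact permutation of 2 and 2 arrays allows is 0.333, and all p-values given here are those of the limma fit over all genes. Other variance models called 1 or 2 genes of the whole array, the replicate number as a block called 47, and none of these was a member.

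The arrays that set these medians were unequal. WT replicate 1 gave the lowest of the 4 readings in 59 of 90 members, against 32.1% of all genes, and WT replicate 2 read above WT replicate 1 in 66 members, against 45.4% of all genes. The median difference between the 2 WT arrays over the members was 0.15, larger than the median of 0.082 between genotypes, and that between the 2 Hif1a-/- arrays was -0.011. Measured against WT replicate 1 alone the members' median was 0.16, and against WT replicate 2 alone it was 0.026, close to the 0.028 of all genes under the same comparison. WT replicate 2 thus lay with the Hif1a-/- arrays for most respiratory genes. The shift of WT replicate 1 was seen in complexes I, II, III and V, whose medians from each gene's mean were -0.15, -0.18, -0.19 and -0.11 on that array, while complex IV as a whole stood at 0.0074. That value pooled 9 subunits of the common enzyme, at -0.065, with 7 paralogs known mainly from other tissues, at 0.062, and Cox7a2l, at 0.017.

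**Figure D1:**
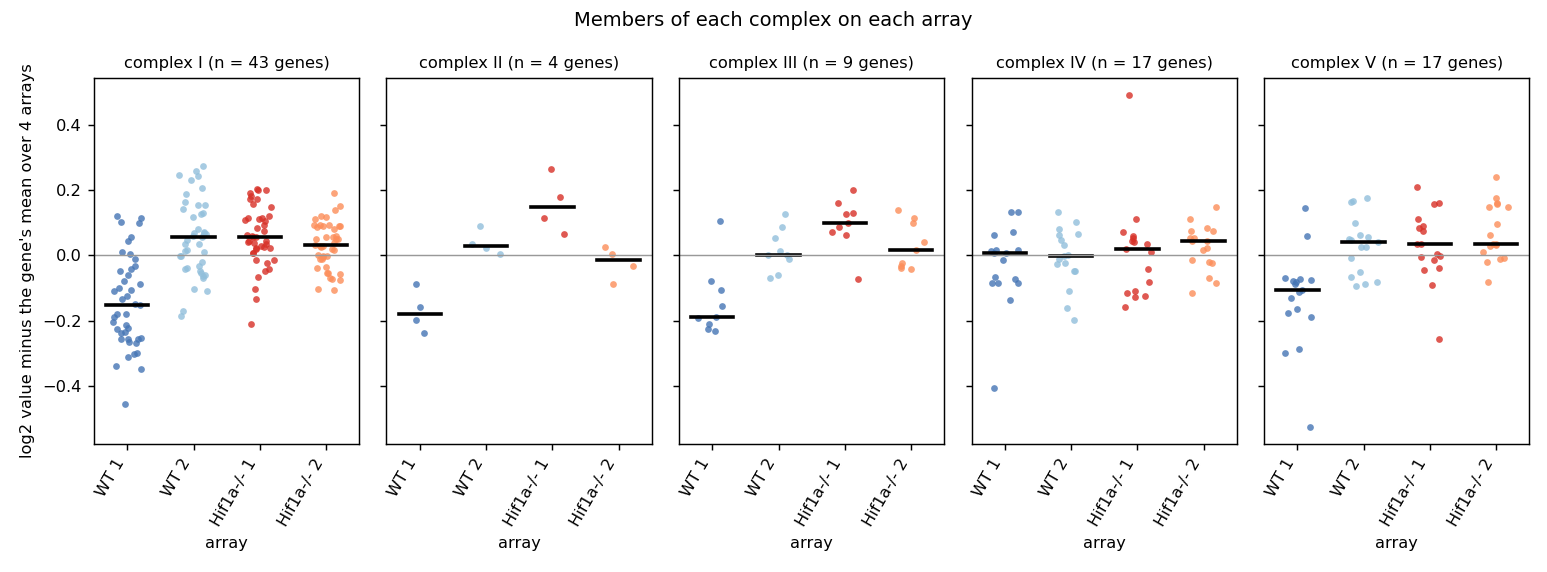
Deviation of each respiratory gene from its own mean over the 4 arrays, on the log2 scale, by complex and array; each point is 1 gene and the bar is the median. WT replicate 1 sits lowest in complexes I, II, III and V, with medians of -0.15, -0.18, -0.19 and -0.11. Complex IV, with subunits, tissue paralogs and Cox7a2l pooled, has a median of 0.0074 on that array.

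Markers of cell identity also differed between the WT arrays. Kit, a marker of the sort, read 10.32 on WT replicate 1 and 11.07 on WT replicate 2, against 10.95 and 10.61 on Hif1a-/- replicates 1 and 2 (Ly6a, the gene of Sca-1, is not analysed here). The neutrophil gene Ly6g read 13.10 and 10.64 on the WT arrays and 11.74 and 11.64 on the Hif1a-/- arrays, and Itgam read 11.88 and 10.27 against 11.00 and 10.71. The other 3 granulocyte and monocyte markers were lower on WT replicate 1 than on WT replicate 2: Mpo with 12.97 and 13.67, Elane with 13.43 and 13.77 and Csf1r with 8.68 and 9.04. The progenitor gene Cd34 read 10.31 and 12.29 in WT against 10.70 and 11.70 in Hif1a-/-. Meis1, Hlf and Mecom were also lower on WT replicate 1, and Gata2 was higher there, with 13.19 and 12.83. Summed on the linear scale, the 5 of 5 granulocyte and monocyte markers gave 32030 and 30324 in WT and 31528 and 31098 in Hif1a-/-, and 5 of 6 stem and progenitor genes gave 11623 and 14278 against 11168 and 12613. The 2 of 3 B cell markers measured gave 964 and 320 against 586 and 421, and the 3 T cell markers 675 and 553 against 661 and 661. The 4 mast cell markers gave 13415 and 14903 in WT and 8384 and 12520 in Hif1a-/-. Klf1, the only one of 4 erythroid markers measured, read 10.03 and 10.05 against 10.38 and 10.29. RMA values have no 0, and Cd4, Cd3g and Ms4a1 had means below the 25th percentile of all genes. The part of these cell markers in the respiratory values was not tested. In bulk RNA, fewer cells of a type and less RNA per cell cannot be told apart.

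Hif1a itself read 11.34 and 11.50 on WT replicates 1 and 2 and 11.25 and 11.39 on Hif1a-/- replicates 1 and 2. The groups overlapped, and the difference was -0.09 with a 95% interval of -0.42 to 0.23 (limma, unadjusted p = 0.502). The position of its probes relative to the deleted part is not given in the sources used here, so this reading does not check the labels.

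The promoters of respiratory genes are known for sites of nuclear respiratory factor 1 and of ETS factors such as GABP. RefSeq windows of 300 bases, 250 before to 50 after the start site, were given for 73 of the 90 members (assembly GRCm38.p6). The longer nuclear respiratory factor 1 site, GCATGCGC with GC before it, which reads the same on both strands, occurred in 7 of the 73 members (9.59%) and in 1.62% of 15563 tested genes with a promoter. GCATGCGC by itself, which the longer site contains, occurred in 12 members (16.4%, against 4.29%) and the ETS letters CCGGAAG in 18 (24.7%, against 13.6%), on either strand. The hypoxia response cores ACGTG and GCGTG occurred in 24.7% and 56.2% of the members, against 24.4% and 44.4% of those genes. Over all 32851 promoters the shares of the 5 motifs, in the order given here, were 0.971%, 2.71%, 8.86%, 19.6% and 32.4%. The median difference between genotypes was 0.087 in the 7 members with the longer site and 0.078 in those without it, given as values with no test. The windows of 4 members with the largest difference or smallest p of their complex are shown to let these letters be seen in place. They are printed 5′ to 3′ on the gene's strand, with every match to a motif, on either strand, in capitals.
Ndufaf4, chr4:24897833-24898132, plus strand: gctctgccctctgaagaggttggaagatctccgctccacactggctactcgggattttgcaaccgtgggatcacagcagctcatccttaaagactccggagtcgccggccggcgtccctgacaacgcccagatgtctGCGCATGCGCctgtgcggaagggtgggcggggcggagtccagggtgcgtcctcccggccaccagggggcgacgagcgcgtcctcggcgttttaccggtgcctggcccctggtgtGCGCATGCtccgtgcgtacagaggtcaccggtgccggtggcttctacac
Sdhd, chr9:50603800-50604099, minus strand: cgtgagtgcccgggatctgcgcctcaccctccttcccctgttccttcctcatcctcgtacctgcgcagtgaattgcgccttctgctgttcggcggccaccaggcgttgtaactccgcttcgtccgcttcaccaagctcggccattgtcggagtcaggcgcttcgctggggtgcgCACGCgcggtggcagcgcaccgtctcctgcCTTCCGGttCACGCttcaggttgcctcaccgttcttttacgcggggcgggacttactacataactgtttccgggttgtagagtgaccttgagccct
Atp5g1, chr11:96075582-96075881, minus strand: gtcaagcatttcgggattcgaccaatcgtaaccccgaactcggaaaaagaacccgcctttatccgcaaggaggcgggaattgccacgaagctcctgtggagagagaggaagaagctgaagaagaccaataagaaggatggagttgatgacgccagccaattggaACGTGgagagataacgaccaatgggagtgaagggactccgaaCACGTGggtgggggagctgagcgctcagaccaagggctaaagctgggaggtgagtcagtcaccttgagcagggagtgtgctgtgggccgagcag
Atp5k, chr5:108434350-108434649, minus strand: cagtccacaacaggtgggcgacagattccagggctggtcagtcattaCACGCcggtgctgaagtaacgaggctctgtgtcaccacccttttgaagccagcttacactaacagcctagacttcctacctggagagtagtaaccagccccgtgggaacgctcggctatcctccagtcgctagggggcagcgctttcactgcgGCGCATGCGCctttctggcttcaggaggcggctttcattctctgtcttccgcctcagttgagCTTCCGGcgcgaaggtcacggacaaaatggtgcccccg
Counting the start site as base 1, Ndufaf4 has the longer site at -113 and GCATGCGC, read on the other strand, at 2. Atp5k has the longer site at -50, CCGGAAG on the other strand at 13 and GCGTG on the other strand at -203. Sdhd has CCGGAAG at -46 and GCGTG at -76 and -37, all on the other strand. Atp5g1 has ACGTG at -86 and -43 and, on the other strand, at -44. The windows of Uqcr10 and Cox6b2, which had the largest differences of complexes III and IV, hold none of these letters. A match is a description of letters and shows no binding.

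Complex I was the largest group, and 33 of its 43 genes had the higher mean in Hif1a-/- (76.7%, against 61.4% of all genes). Both Hif1a-/- arrays read above both WT arrays in 12 genes (Ndufb9, Ndufb8, Ndufs6, Ndufa7, Ndufb2, Ndufa10, Ndufa8, Ndufs8, Ndufa4l2, Ndufs7, Ndufa3 and Ndufv2) and below in 1, Ndufv3. The shares above and below were 27.9% and 2.33% of complex I, against 15.7% and 9.05% of all genes. None had an unadjusted p under 0.05, and the smallest was 0.136. The 6 measured core subunits of the arm that takes electrons from NADH (Ndufv1, Ndufv2, Ndufs1, Ndufs3, Ndufs7 and Ndufs8) all had a higher mean in Hif1a-/-, with a median of 0.14, beside a median of 0.29 between the 2 WT arrays. Of 28 accessory subunits, which surround the core, 18 were higher (64.3%) and 10 lower in Hif1a-/-, with a median of 0.065. That share lies near the 61.4% of all genes.

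Among the accessory subunits, Ndufb9 read 11.38 and 11.66 on WT replicates 1 and 2 and 11.76 and 11.76 on Hif1a-/- replicates 1 and 2. Ndufb8 read 10.68 and 10.77 against 11.02 and 10.86. Ndufs6, needed late in assembly, read 10.56 and 10.55 against 10.69 and 10.80. In these 3 genes the groups do not overlap. Their differences were 0.24 ± 0.14, 0.22 ± 0.13 and 0.19 ± 0.12 (limma standard error, 2 against 2 arrays), with unadjusted limma p of 0.136, 0.143 and 0.169. Of these 3 genes, Ndufs6 had 2 WT arrays that lay together, with WT replicate 1 not the lowest. Ndufv3, an accessory subunit of the arm that binds NADH, read 10.14 and 10.09 in WT and 9.89 and 9.97 in Hif1a-/-, a difference of -0.19 ± 0.12 (unadjusted p = 0.168). It read lowest on Hif1a-/- replicate 1, against the direction of most of its complex.

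The 7 assembly factors Ndufaf1 to Ndufaf7, which build complex I and are not part of it, all had a higher mean in Hif1a-/- (median 0.087), with overlapping groups in each. Between the 2 WT arrays their median difference was 0.42, and against WT replicate 2 alone their median was -0.12, so the sign of their median depended on which WT array was read. All 7 were higher in Hif1a-/- than on WT replicate 1, and 2 of them, Ndufaf3 and Ndufaf4, than on WT replicate 2. WT replicate 1 was the lowest array in 6 of them (85.7%, against 32.1% of all genes). Ndufaf4 had the largest difference of complex I, with 9.20 and 9.80 on the WT arrays and 9.83 and 9.80 on the Hif1a-/- arrays. Its difference of 0.31 ± 0.21 (unadjusted p = 0.175) was 0.61 against WT replicate 1 and 0.013 against WT replicate 2.

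Ndufa4 bears a complex I name and has since been placed in complex IV, and its paralog Ndufa4l2 is a known HIF1 target. Ndufa4 read 10.32 and 10.61 in WT and 10.70 and 10.57 in Hif1a-/-, with overlapping groups and a difference of 0.17 ± 0.15 (unadjusted p = 0.302). Ndufa4l2 read 7.93 and 7.74 in WT and 7.98 and 8.04 in Hif1a-/-, a difference of 0.18 ± 0.13 with a 95% interval of -0.14 to 0.49 (unadjusted p = 0.228). Its Hif1a-/- arrays were the higher ones by a small margin, and it did not pass the test.

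Complex II, which is also succinate dehydrogenase of the citric acid cycle, was measured in all 4 of its subunits. Every one had a higher mean in Hif1a-/-, as did 61.4% of all genes. In every one the groups overlapped, where 24.7% of all genes had no overlap, and WT replicate 1 was lowest, against 32.1% of all genes. The membrane anchor Sdhd read 10.87 and 11.14 in WT and 11.28 and 11.13 in Hif1a-/- (0.20 ± 0.15, unadjusted p = 0.212). The other anchor, Sdhc, read 11.27 and 11.49 against 11.73 and 11.38 (0.17 ± 0.17, unadjusted p = 0.330). Both were highest on Hif1a-/- replicate 1 and had WT replicate 2 above Hif1a-/- replicate 2, by little in Sdhd. Without Hif1a-/- replicate 1 the difference of Sdhc was -0.00074. The iron-sulfur subunit Sdhb read 11.02 and 11.11 against 11.22 and 11.07 (0.084 ± 0.13, unadjusted p = 0.534). The flavin subunit Sdha, which oxidises succinate, read 11.70 and 11.95 against 11.93 and 11.86 (0.068 ± 0.14, unadjusted p = 0.642), and was -0.057 without WT replicate 1.

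Complex III had the largest share of genes that separated the genotypes, with 5 of 9 above (Uqcrh, Uqcr10, Uqcr11, Uqcrc1 and Uqcrq), 1 below (Uqcrb) and 3 overlapping. The shares above and below were 55.6% and 11.1%, against 15.7% and 9.05% of all genes. WT replicate 1 was the lowest array in 8 of the 9 (88.9%, against 32.1% of all genes). Uqcrh, the hinge subunit beside cytochrome c1, read 11.84 and 11.93 in WT and 12.09 and 12.11 in Hif1a-/-, a difference of 0.21 ± 0.12 (unadjusted p = 0.127). Uqcr10, a small subunit, read 9.97 and 10.20 against 10.29 and 10.34, a difference of 0.23 ± 0.14 (unadjusted p = 0.142). In both genes the genotypes lay apart, and Uqcrh had the closer replicates. Uqcrc1, a core protein that does not carry electrons, read 12.04 and 12.25 against 12.39 and 12.25, so that WT replicate 2 and Hif1a-/- replicate 2 were level to 2 decimals (0.18 ± 0.14, unadjusted p = 0.245). Uqcr11 read 10.39 and 10.43 against 10.70 and 10.47 (0.18 ± 0.13, unadjusted p = 0.236), with most of the difference on Hif1a-/- replicate 1. Uqcrb, which lies near the quinone site, read 12.11 and 12.00 against 11.93 and 11.97, a difference of -0.11, and its other probe sets gave -0.11 and -0.27. The redox subunits Cyc1, which is cytochrome c1, and Uqcrfs1, the Rieske protein, differed by 0.11 ± 0.14 and 0.083 ± 0.16, with overlapping groups. Without WT replicate 1 the median of complex III was 0.057, under its value of 0.17 on all arrays.

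**Figure D2:**
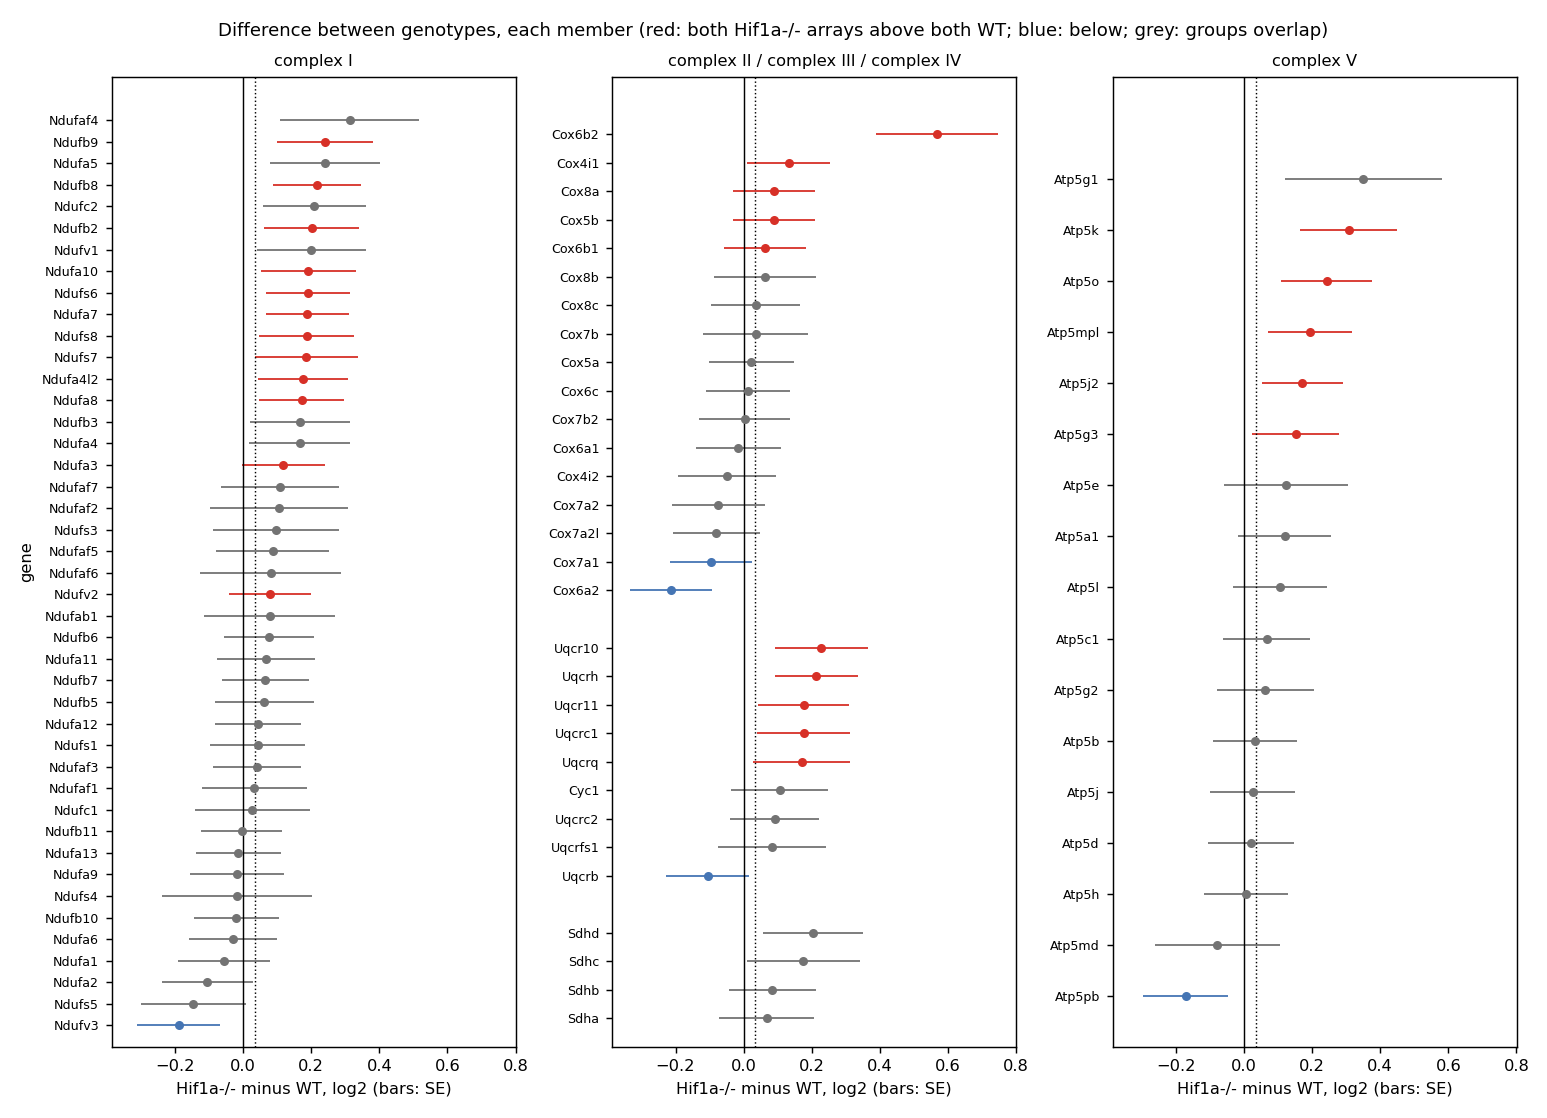
Difference between the Hif1a-/- and WT means of each of the 90 genes on the log2 scale, by complex, with bars of 1 standard error of the limma fit; red marks both Hif1a-/- arrays above both WT arrays, blue below, grey overlap, and the dotted line is the median of all genes, 0.034. Cox6b2 at 0.57 and Cox6a2 at -0.21 are the highest and lowest values, both in complex IV.

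Complex IV as a whole had a median near that of all genes, and its subunits and paralogs differed on WT replicate 1. Of its 17 genes 11 had the higher mean in Hif1a-/- (64.7%, against 61.4% of all genes) and 6 in WT. In 5 both Hif1a-/- arrays lay above (Cox6b2, Cox4i1, Cox8a, Cox5b and Cox6b1), in 2 below (Cox6a2 and Cox7a1), and 10 overlapped. The shares above and below were 29.4% and 11.8%, against 15.7% and 9.05% of all genes. With each array centred on its median, 8 of 17 had the higher mean in Hif1a-/- (47.1%, against 52.9% of all genes). The 9 subunits of the common form of the enzyme had a median of 0.035, and the 7 paralogs known mainly from other tissues had a median of 0.0030. WT replicate 1 was lowest in 5 of the 9 subunits (55.6%) and in 1 of the 7 paralogs (14.3%), against 32.1% of all genes, and it was highest in 4 of the paralogs and 0 of the subunits. The array medians of complex IV spread by 0.013 between replicates (SD pooled over the genotypes), against 0.073 to 0.13 in the other complexes. That small spread pools subunits and paralogs whose medians on WT replicate 1 had opposite signs, -0.065 and 0.062.

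Cox6b2, a subunit form known from testis, had the largest difference and the smallest p of all 90 members. It read 9.44 and 9.68 on WT replicates 1 and 2 and 10.34 and 9.92 on Hif1a-/- replicates 1 and 2. Both Hif1a-/- arrays were above both WT arrays, though the 2 Hif1a-/- arrays lay further apart than the nearest arrays of the 2 genotypes. The difference was 0.57 ± 0.18 on the log2 scale, or 1.48-fold, with a 95% interval of 0.14 to 1.00 (limma, unadjusted p = 0.0176, adjusted p = 0.999). Without Hif1a-/- replicate 1 it was 0.36 (unadjusted p = 0.168), without Hif1a-/- replicate 2 it was 0.77, and without WT replicate 1 or 2 it was 0.45 or 0.69. The ubiquitous form Cox6b1 read 11.99 and 11.95 in WT and 12.02 and 12.04 in Hif1a-/-, a difference of 0.063 ± 0.12 (unadjusted p = 0.615).

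The pair of Cox4 forms is the textbook HIF1 switch in complex IV. The common form Cox4i1 read 11.19 and 11.23 in WT and 11.38 and 11.29 in Hif1a-/-, a difference of 0.13 with a 95% interval of -0.16 to 0.43 (unadjusted p = 0.319). The low-oxygen form Cox4i2 read 9.23 and 9.45 in WT and 9.19 and 9.39 in Hif1a-/-, a difference of -0.048 with an interval of -0.40 to 0.30 (unadjusted p = 0.748). Within each genotype replicate 2 read higher than replicate 1 by more than the genotypes differed. Without WT replicate 2 the difference of Cox4i2 was 0.060, and without Hif1a-/- replicate 1 it was 0.052. The protease gene Lonp1 read 10.10 and 10.54 in WT and 10.63 and 10.27 in Hif1a-/- (0.12 ± 0.20, unadjusted p = 0.554). None of these 3 genes passed the test, and the groups of Cox4i2 and Lonp1 overlapped.

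The heart and muscle forms Cox6a2 and Cox7a1 were the 2 genes of complex IV below in Hif1a-/-. Cox6a2 read 9.44 and 9.39 in WT and 9.18 and 9.22 in Hif1a-/-, a difference of -0.21 ± 0.12 (unadjusted p = 0.125), and its replicates lay close together in both genotypes. Cox7a1 read 8.76 and 8.73 against 8.62 and 8.69, a difference of -0.095 ± 0.12 (unadjusted p = 0.458). Their common forms did not separate: Cox6a1 differed by -0.015 (0.0093 after a second quantile normalization) and Cox7a2 by -0.074. Cox7a2l, which helps join complexes III and IV into supercomplexes, read 9.58 and 9.63 in WT and 9.60 and 9.45 in Hif1a-/-, a difference of -0.080. Cox8a, the common form, read 12.12 and 12.20 against 12.25 and 12.25, with a difference of 0.089. The muscle form Cox8b and the testis form Cox8c differed by 0.063 and 0.035, with overlapping groups, and Cox8c was -0.0013 after a second quantile normalization. Cox7b2 had a mean of 6.02 and was the only member below the 25th percentile of all genes, 7.49.

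**Figure D3:**
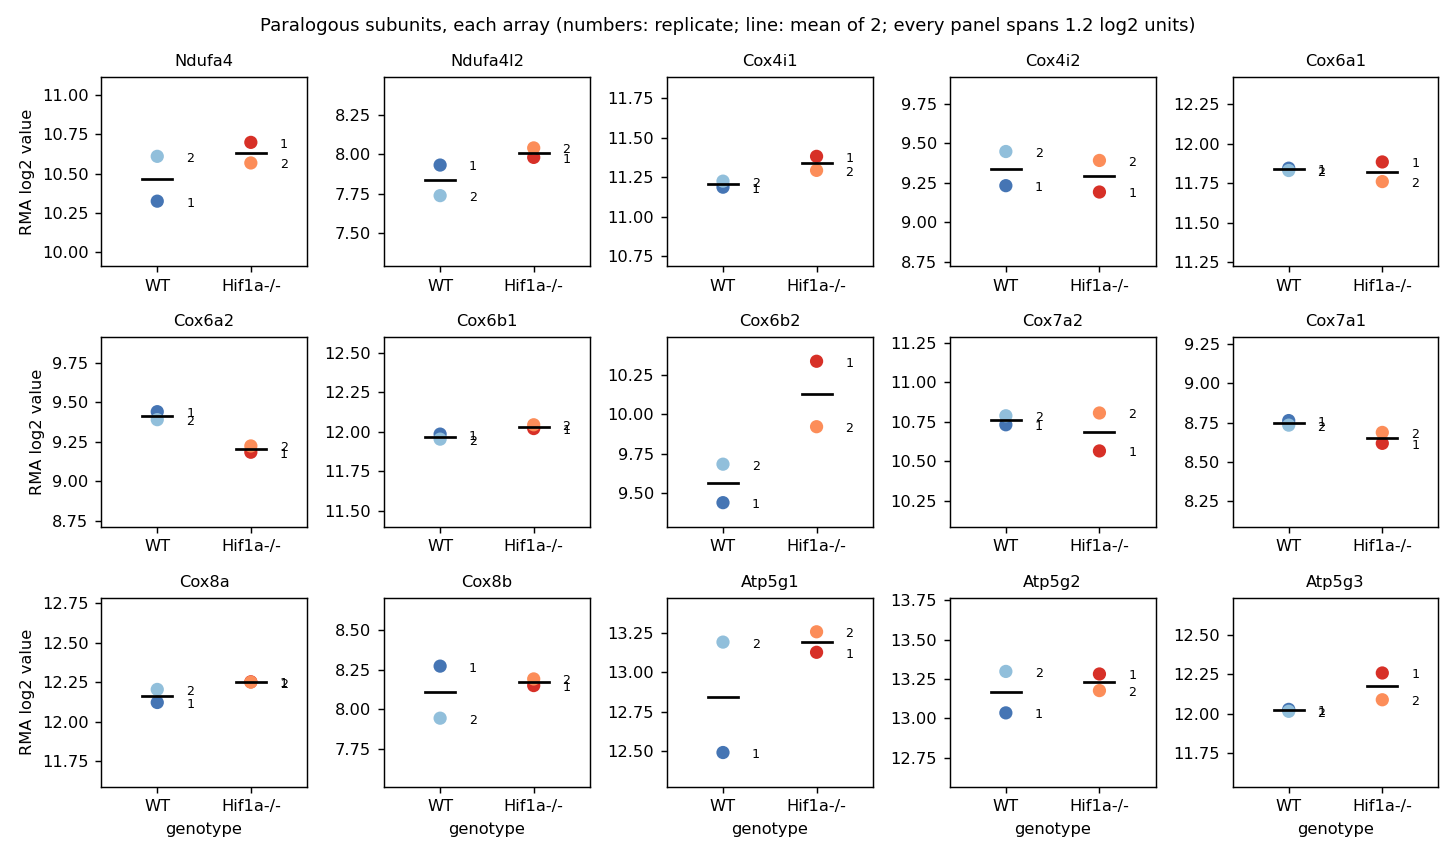
RMA log2 values of paralogous genes of complexes I, IV and V on each array, with 1 panel per gene; points are arrays, numbered by replicate, the short line is the mean of each genotype, and every panel spans the same range. The Hif1a-/- arrays of Cox6b2 lie at 10.34 and 9.92 above WT at 9.44 and 9.68, those of Cox6a2 at 9.18 and 9.22 below WT at 9.44 and 9.39, and WT replicate 1 of Atp5g1 lies apart at 12.49.

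Complex V, the ATP synthase, had 15 of 17 genes with the higher mean in Hif1a-/- (88.2%, against 61.4% of all genes). In 5 the groups lay apart in that direction (Atp5k, Atp5o, Atp5mpl, Atp5j2 and Atp5g3), in 1 the other way (Atp5pb), and 11 overlapped. The shares above and below were 29.4% and 5.88%, against 15.7% and 9.05% of all genes. With each array centred on its median, 12 of 17 had the higher mean in Hif1a-/- (70.6%, against 52.9% of all genes). The 5 subunits of the F1 head, which makes ATP (Atp5a1, Atp5b, Atp5c1, Atp5d and Atp5e), differed by 0.021 to 0.12 with overlap in every one. WT replicate 1 was lowest in all 5, against 32.1% of all genes. The 5 small membrane subunits had a median of 0.17, the 3 genes of the rotating c ring 0.15 and the 4 of the stator stalk 0.016.

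Atp5k, the e subunit that holds ATP synthase dimers together, read 9.89 and 10.17 on WT replicates 1 and 2 and 10.34 and 10.33 on Hif1a-/- replicates 1 and 2. The difference was 0.31 ± 0.14 with a 95% interval of -0.04 to 0.65 (limma, unadjusted p = 0.0730, adjusted p = 0.999), and it was 0.16 without WT replicate 1. Its Hif1a-/- arrays lay together and above WT, and the larger gap was between the WT arrays. Atp5o, which ties the head to the stalk, read 10.70 and 10.84 against 11.10 and 10.92 (0.24 ± 0.13, unadjusted p = 0.118). Atp5mpl, a small membrane subunit, read 10.89 and 10.91 against 11.03 and 11.15 (0.19 ± 0.12, unadjusted p = 0.167), so its WT arrays lay together. The stalk gene Atp5pb read 11.77 and 11.65 against 11.54 and 11.55, a difference of -0.17 ± 0.12. A second probe set of that gene gave 0.041, so its direction is uncertain.

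The c ring is built from 1 protein that 3 genes encode with different import signals. Atp5g1 read 12.49 and 13.19 in WT and 13.13 and 13.26 in Hif1a-/-, a difference of 0.35 ± 0.23 (unadjusted p = 0.177). All of that difference lay on WT replicate 1: without it the value was 0.00026, and without WT replicate 2 it was 0.70. Atp5g2 read 13.04 and 13.30 against 13.28 and 13.18, a difference of 0.063, and was -0.069 without WT replicate 1. Atp5g3 read 12.03 and 12.02 against 12.26 and 12.09, a difference of 0.15. It was the only one of the 3 whose groups did not overlap and whose WT arrays lay together. Without WT replicate 1 the median of complex V was 0.00026, the value of Atp5g1.

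**Figure D4:**
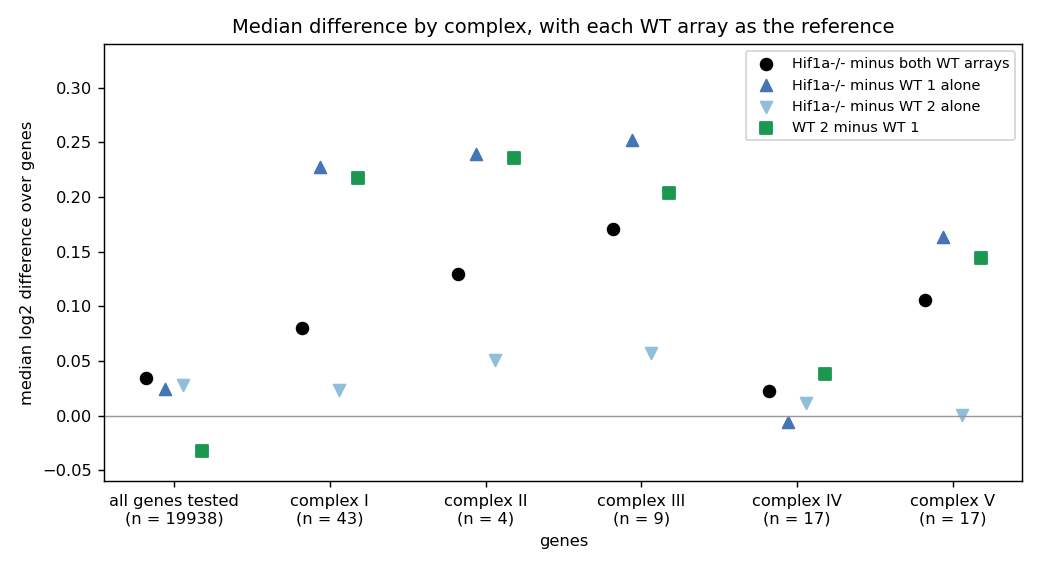
Median log2 difference over genes, for all genes tested and complexes I to V, of the Hif1a-/- mean from both WT arrays (circles), from WT replicate 1 alone (upright triangles) and from WT replicate 2 alone (inverted triangles), and of WT replicate 2 from WT replicate 1 (squares). From WT replicate 1 the medians of complexes I, II, III and V are 0.16 to 0.25 and from WT replicate 2 all 5 are 0.00026 to 0.057, while complex IV stays near 0 and changes sign when arrays are centred.

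Across the complexes, the genotype medians can be read beside the SD of the array medians between replicates, pooled over the genotypes. Between the 2 WT arrays alone the median differences were 0.22, 0.24, 0.20, 0.038 and 0.14 in complexes I to V. Each was larger than the genotype median of its complex. Complex I had a median of 0.081 against an SD of 0.11, complex II 0.13 against 0.13 and complex V 0.11 against 0.073. For complex III the median of 0.17 stood against an SD of 0.10, and for complex IV 0.022 against 0.013, where the median changes sign when arrays are centred. In 46 of the 90 members the direction was the same whichever array was left out: 20 of 43 in complex I, 2 of 4 in complex II, 7 of 9 in complex III, 8 of 17 in complex IV and 9 of 17 in complex V. The 32 members whose groups do not overlap are among them by construction, and 24.7% of all genes have no overlap. The share of all genes that keep their direction is not given here, so these counts are only descriptions. Among the 17 members with more than 1 probe set, the sets of 3 genes (Atp5h, Atp5pb and Ndufb11) differed in sign.

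Genes that serve the chain without being members had the same low readings on WT replicate 1. Of 83 listed assembly factors, carriers and regulators 74 were measured. Of these 55 had the higher mean in Hif1a-/- (74.3%, against 61.4% of all genes), 19 in WT, and the median was 0.075. None had an unadjusted p under 0.05, and WT replicate 1 was lowest in 58 (78.4%, against 32.1% of all genes). Both Hif1a-/- arrays lay above WT in 7 (9.46%, against 15.7% of all genes) and below in 2 (2.70%, against 9.05%), so these genes separated the genotypes in a smaller share than the array as a whole. By role, the medians were 0.076 over 8 complex I assembly factors, 0.073 over 4 of complex II, 0.12 over 6 of complex III, 0.090 over 19 of complex IV and 0.055 over 3 of complex V. They were 0.066 over 14 carrier genes, 0.035 over 14 regulators of mitochondrial genes and 0.072 over 6 uncoupling and HIF-linked genes. Measured against WT replicate 1 alone the median over the 74 genes was 0.26, and against WT replicate 2 alone it was -0.087. The Hif1a-/- mean was above WT replicate 2 in 17 of the 74, and in 11121 of all 19938 genes. Against WT replicate 2 alone every one of these lists had a median below 0 except complex III assembly, at 0.0088. In the other lists the sign of the median depended on which WT array was read.

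Coq9, which is needed to make ubiquinone, read 10.28 and 10.33 in WT and 10.59 and 10.49 in Hif1a-/-, and its p was the smallest of these lists (0.24 ± 0.12, unadjusted p = 0.0973). Cox14, a complex IV assembly factor, read 9.24 and 9.27 against 9.46 and 9.45 (0.20 ± 0.12, unadjusted p = 0.146). In both genes the WT arrays lay together and below the Hif1a-/- arrays. Atpif1, the inhibitor of ATP synthase running in reverse, read 13.16 and 13.37 against 13.52 and 13.49 (0.24 ± 0.13, unadjusted p = 0.121). Uqcc2, an assembly factor of complex III, differed by 0.32 ± 0.21 and Chchd10 by 0.27 ± 0.19, both with overlapping groups. The other assembly factors with the smallest p of their lists were Nubpl (0.25 ± 0.26), Acad9 (0.16 ± 0.21), Sdhaf3 (0.19 ± 0.16), Sdhaf4 (0.085 ± 0.12), Lyrm7 (0.15 ± 0.15), Coa6 (0.16 ± 0.13), Tmem70 (0.12 ± 0.17) and Atpaf1 (-0.048 ± 0.17), none with an unadjusted limma p under 0.05. Among regulators, the mitochondrial RNA polymerase gene Polrmt differed by 0.18 ± 0.14 and the coactivator gene Pprc1 by 0.26 ± 0.23. Coq3, of ubiquinone synthesis, differed by 0.23 ± 0.19. Cycs, the cytochrome c gene that links complexes III and IV, had a difference of -0.20 ± 0.19, with 12.12 and 12.33 in WT and 11.77 and 12.28 in Hif1a-/-.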

How the data were processed

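RNA of the 4 samples was hybridised to Affymetrix whole-transcript arrays. The authors deposited log2 expression values for 35556 probe sets, made with Affymetrix Expression Console 1.1 and RMA per the submitters' processing notes, with other options not given in the sources used here. RMA draws small differences of dim genes together and scales out any change in total RNA per cell. Groups follow the genotype each title gives. Names came from the platform annotation: 21789 had 1 symbol, 1621 several and 12146 none. Members all matched RefSeq (GRCm38.p6) by Entrez number, with 0 changed symbols. Some items are not reported here, and genes of mitochondrial DNA lie outside the rule.

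All 19938 genes went through limma 3.58.1 (lmFit, then eBayes; R 4.3.3), fitting genotype alone (2 residual and 4.46 prior degrees of freedom), with Benjamini-Hochberg adjustment over all genes and a threshold of 0.05. The script was tested on simulated data. Members and lists were chosen with earlier results of these data known, so medians and counts are descriptions without a test. Listed genes without a probe set of 1 symbol are not analysed here; Atpif1 and Atp5if1, both listed, are 1 gene. The text names Hif1a, the 4 genes of smallest p in complexes I, III, IV and V, all of complex II, 7 paralog sets and the 2 genes of smallest p in each list, 49 in all; any other gene was picked once its values were known. Alternatives were filters, scalings, a floor, probe set summaries, variance models, a replicate block, arrays left out, a threshold of 0.1, narrower membership and means in place of medians.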

Additional observations from a re-analysis of the deposited data

How the results depend on the processing

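Apart from leaving out arrays, 31 of 58 alternative values of the complex medians equalled the reported one, many by construction, since a variance model or a block leaves a difference of means as it is. Of the 27 that moved, 26 moved by less than the spread between replicates. The exception was complex IV, at -0.0037 with arrays centred on their medians; the cause was not tested. Genes past the threshold numbered 0 on all arrays, 1 with a variance trend and 2 with a trend and robust fitting. Without WT replicate 1 there were 349, and without WT replicate 2 there were 1442, 4 of them members (Atp5g1, Atp5k, Cox6b2 and Ndufaf4). A lone array is then assumed to vary like the other genotype. The labels do not say whether the replicate numbers pair the samples. Same-numbered deviations had a correlation of -0.0072 over genes, which cannot settle it. With the replicate block 47 genes and 0 members passed, and 1 member had an unadjusted p under 0.05. That count of members, 1 in the fit reported, was 3 after a second quantile normalization, 7 with a floor at the 25th percentile, 2 at a threshold of 0.1, and 0 to 23 with 1 array left out (0 without Hif1a-/- replicate 1, 2 without WT replicate 1, 23 without WT replicate 2). Members without overlap numbered 32 of 90 on all arrays, where 24.7% of all genes had no overlap. They numbered 29 to 42 under the other settings and 50 to 77 with 1 array left out, where 3 arrays separate more easily than 4. The shares of all genes under these other settings are not given here, so these counts of members are only descriptions. With 1 array left out the medians ran from 0.023 to 0.23 in complex I, 0.024 to 0.24 in complex II, 0.057 to 0.25 in complex III, -0.0060 to 0.060 in complex IV and 0.00026 to 0.16 in complex V. Of the 49 named genes, Cox6a1 (0.0093) and Cox8c (-0.0013) changed sign after a second quantile normalization and Nubpl (-0.027) with the floor. With 1 array left out, the ranges that crossed 0 were -0.00074 to 0.35 for Sdhc, -0.057 to 0.19 for Sdha, -0.16 to 0.060 for Cox4i2, -0.078 to 0.047 for Cox6a1, -0.19 to 0.046 for Cox7a2, -0.10 to 0.23 for Cox8b, -0.055 to 0.13 for Cox8c, -0.069 to 0.19 for Atp5g2, -0.16 to 0.66 for Nubpl, -0.15 to 0.47 for Acad9, -0.0033 to 0.38 for Sdhaf3, -0.018 to 0.32 for Lyrm7, -0.089 to 0.32 for Tmem70, -0.24 to 0.15 for Atpaf1, -0.0037 to 0.46 for Coq3 and -0.060 to 0.58 for Pprc1. The cause of these changes was not tested. With 2 arrays a group and a median standard error of 0.14, differences of the size seen in most members could not be detected.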

Other observations

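Probe sets that match more than 1 gene were left out of the 90 members, and 6 of them carry respiratory chain symbols. For Cox7c, a subunit of complex IV that shares its 3 sets with Gm12338, the differences between Hif1a-/- and WT means were -0.13, -0.072 and -0.040. The set shared by Ndufs5 and Ndufs5-ps gave -0.14, beside -0.15 for the Ndufs5 set among the members. Both sets shared by Ndufb4b and Ndufb4 had higher means in Hif1a-/-, by 0.19 and 0.25, with readings of 11.46 and 11.79 in WT against 11.66 and 11.96 in the first and 11.72 and 12.03 against 12.00 and 12.24 in the second. The groups overlapped in both. Near-identical copies cannot be told apart by these sets.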
